A study of Arabidopsis thaliana with 11 samples.

Results

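The region described here is the start of chromosome 5 of Arabidopsis thaliana, taken as the genes from AT5G01010 to AT5G12300. It was chosen for a low maternal share of allele-assigned reads in the experiment 1 endosperm, in wild type and in homozygous nrpd1. That low share was not seen in experiment 2. The levels of the shares in both experiments are therefore given as a description with no test. The stretch held 1202 of the 32005 genes present in every table, over 3.98 Mb. Of the members, 1140 were annotated as protein coding, and the other 62 included 33 tRNA genes, 12 pseudogenes and 10 long noncoding RNA genes. The low share was found in an inner block of 984 members, of which 384 averaged 20 or more allele-assigned counts per experiment 1 library. Of the 80 members nearest the chromosome end and the 138 members at the far side, 26 and 33 reached that mean. The pooled shares of these flanking members were like those of other genes.

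Messenger RNA of hand-dissected endosperm was sequenced from seeds of Ler mothers and Col fathers, pooled over crosses between several plants. NRPD1 is the large catalytic subunit of RNA polymerase IV. In experiment 1, at 6 days after pollination, 3 homozygous nrpd1 libraries (nrpd1a-4 from both parents) were set against 2 wild-type libraries. In experiment 2, at 6 to 7 days, 3 paternal nrpd1 libraries (wild-type Ler mother, nrpd1a-4 Col father) were set against 3 wild-type libraries. The kits differed (TruSeq stranded with 15 PCR cycles and paired reads of 100 bases in experiment 1, SMARTer with 12 cycles and single reads of 40 bases in experiment 2), so each mutant was set only against wild type from the same experiment. The mother was Ler and the father Col in every cross, so parent of origin and strain cannot be told apart.

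The endosperm nourishes the embryo and forms from a fertilised central cell that carries 2 maternal genomes beside 1 paternal genome. A gene read equally from every copy therefore has 66.7% of its allele-assigned reads from the mother. Imprinted genes depart from that level one by one or in small clusters. RNA polymerase IV starts the small RNA pathway that guides DNA methylation, mostly over transposons, and in endosperm it is known to affect the balance between maternal and paternal transcripts. The maternal share below is the Ler count divided by the sum of the Ler and Col counts. It measures Ler reads and stands for the mother only where her genome was Ler, which was not tested gene by gene.

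Experiment 1 libraries held 15926510 to 20817788 counts, of which 17.8% to 18.4% were assigned to an allele. Experiment 2 libraries held 24845721 to 35629462, of which 7.05% to 7.82% were assigned. Homozygous replicate 2 stood apart from the other experiment 1 libraries, with Spearman correlations of 0.952 to 0.974 over 18570 genes, against 0.981 to 0.992 among the other 4. The pooled share of the block and the calls on totals are given with and without it. Counts of genes by share, medians of gene shares and genotype differences of shares include it. The experiment 2 libraries split across the genotypes: wild-type replicates 2 and 3 correlated at 0.980, whereas paternal nrpd1 replicate 2 correlated at 0.966 with wild-type replicate 1 and at 0.843 with wild-type replicate 2. NRPD1 itself had 26.5, 21.8 and 30.7 CPM (the count scaled to 1000000 counts per library) in homozygous nrpd1 and 47.5 and 39.5 CPM in wild type, lower in all 3 mutant libraries (log2 change -0.72, adjusted p = 0.238 by edgeR). It had 5.88, 1.79 and 4.17 CPM in paternal nrpd1 and 8.40, 10.4 and 10.4 CPM in wild type of experiment 2, also without overlap (log2 change -1.30, adjusted p = 0.616). Its allele counts in homozygous nrpd1 were 0, 0 and 0 for Ler and 191, 136 and 268 for Col. In wild type of experiment 1 they were 105 and 109 for Ler and 221 and 194 for Col. In experiment 2 they were 20, 1 and 10 for Ler and 9, 1 and 11 for Col in paternal nrpd1. Wild type there had 10, 33 and 27 for Ler and 10, 36 and 15 for Col. All these counts cover the whole gene and do not separate functional from interrupted transcripts.

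Summed over 12 seed coat marker genes, expression was 873 to 1237 CPM in homozygous nrpd1 and 872 to 905 CPM in wild type of experiment 1, against 129 to 449 CPM in paternal nrpd1 and 200.0 to 285 CPM in wild type of experiment 2. The seed coat is maternal tissue, and its marker sum was higher in every library of experiment 1 than in any of experiment 2. TT12 was at 0 in 2 libraries and AHA10 in 1. The sum of 11 endosperm markers was 694 to 1019 CPM in homozygous nrpd1, 1037 to 1145 CPM in wild type of experiment 1, 1069 to 2208 CPM in paternal nrpd1 and 1185 to 2138 CPM in wild type of experiment 2. Among them MINI3 had no count in 10 of 11 libraries and IKU2 none in 8, and PHE1 or MEA was at 0 in some. The sum of 14 embryo markers was 209.8 to 253 CPM in homozygous nrpd1, 266 to 279.8 CPM in wild type of experiment 1, 413 to 867 CPM in paternal nrpd1 and 324 to 499.9 CPM in wild type of experiment 2. Its members DRNL and CUC2 were at 0 in all 11 libraries. Fewer cells of a type and less RNA per cell cannot be told apart in these bulk samples.

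The change in maternal share was abrupt on both sides. A scan for the pair of boundaries that best separated low from ordinary shares, on the 443 members that averaged 20 or more allele-assigned counts per experiment 1 library, placed the low block between AT5G01700 (chr5:260723-263451, minus strand) and AT5G11000 (chr5:3478672-3480621, minus strand). The block spans 3.22 Mb and holds 984 members, 384 of them with enough allele counts. The left boundary lay between the same neighbours, AT5G01670 and AT5G01700, in each of the 5 libraries. These genes are 6750 bases apart, and the gap holds CHX26 and CHX27, genes of the cation/H+ exchanger family that had no allele counts. The right boundary lay between AT5G11000 and AT5G11010, 3010 bases apart with no gene between them, in the pooled data, homozygous replicate 1 and wild-type replicate 2. In the other 3 libraries it lay after AT5G11020.

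The sequences at the middle of the gene-free part of each gap are shown because the boundaries of the pooled data lay in these gaps. The left gap held the boundary in all 5 libraries, and the right gap held it in 2 of 5, homozygous replicate 1 and wild-type replicate 2. Both are plus strand, from the TAIR10.1 assembly of RefSeq, and neither overlaps an annotated gene. The first is chr5:256854-257093, between CHX26 and CHX27, and the second is chr5:3482007-3482246, between AT5G11000 and AT5G11010. Bases G and C make up 24.6% of the first and 27.1% of the second. The allele counts are per gene, so the point of change is not resolved within either gap.
Left boundary: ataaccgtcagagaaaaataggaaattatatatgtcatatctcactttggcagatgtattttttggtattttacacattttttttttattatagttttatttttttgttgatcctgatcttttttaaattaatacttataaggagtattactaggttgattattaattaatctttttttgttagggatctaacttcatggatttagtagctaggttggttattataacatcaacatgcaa
Right boundary: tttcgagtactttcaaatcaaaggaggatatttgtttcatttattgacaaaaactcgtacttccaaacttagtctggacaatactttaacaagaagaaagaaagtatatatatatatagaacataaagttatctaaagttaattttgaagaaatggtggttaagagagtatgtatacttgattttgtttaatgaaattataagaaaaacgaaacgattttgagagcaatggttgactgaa

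The genes on either side of the boundaries showed the step in single loci. AT5G01670, an NAD(P)-linked oxidoreductase just outside the left boundary, had shares of 72.5%, 92.4% and 67.1% in homozygous nrpd1 and 58.7% and 61.0% in wild type. AT5G01700, a protein phosphatase 2C just inside it, had 21.4%, 25% and 41.0% in homozygous nrpd1 and 26.7% and 27.8% in wild type. Every library was above 50% at the first gene and below 50% at the second. At the right boundary, AT5G11000, of unknown function, had 32.0%, 36.5% and 36.4% in homozygous nrpd1 and 26.8% and 23.4% in wild type. Its neighbour AT5G11010, annotated as a pre-mRNA cleavage complex II protein, had 73.7%, 78.6% and 80% in homozygous nrpd1 and 54.5% and 71.4% in wild type. The next gene, the protein kinase gene AT5G11020, had 55.1%, 42.5% and 31.9% in homozygous nrpd1 and 27.5% and 38.6% in wild type, from 136 and 84 allele counts. In experiment 2 it had 45.9%, 63.6% and 73.3% in paternal nrpd1 and 66.7%, 30.6% and 41.7% in wild type, so its wild-type libraries overlapped between the experiments. Its log2 ratio of Ler to Col counts in wild type differed by -0.43 between experiment 1 and experiment 2. It overlaps AT5G11010 at its end, where reads of the pair could be mixed. ALF4, needed for lateral root formation and the gene after it, had 72.9%, 85% and 73.5% in homozygous nrpd1 and 66.3% and 64.8% in wild type.

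**Figure D1:**
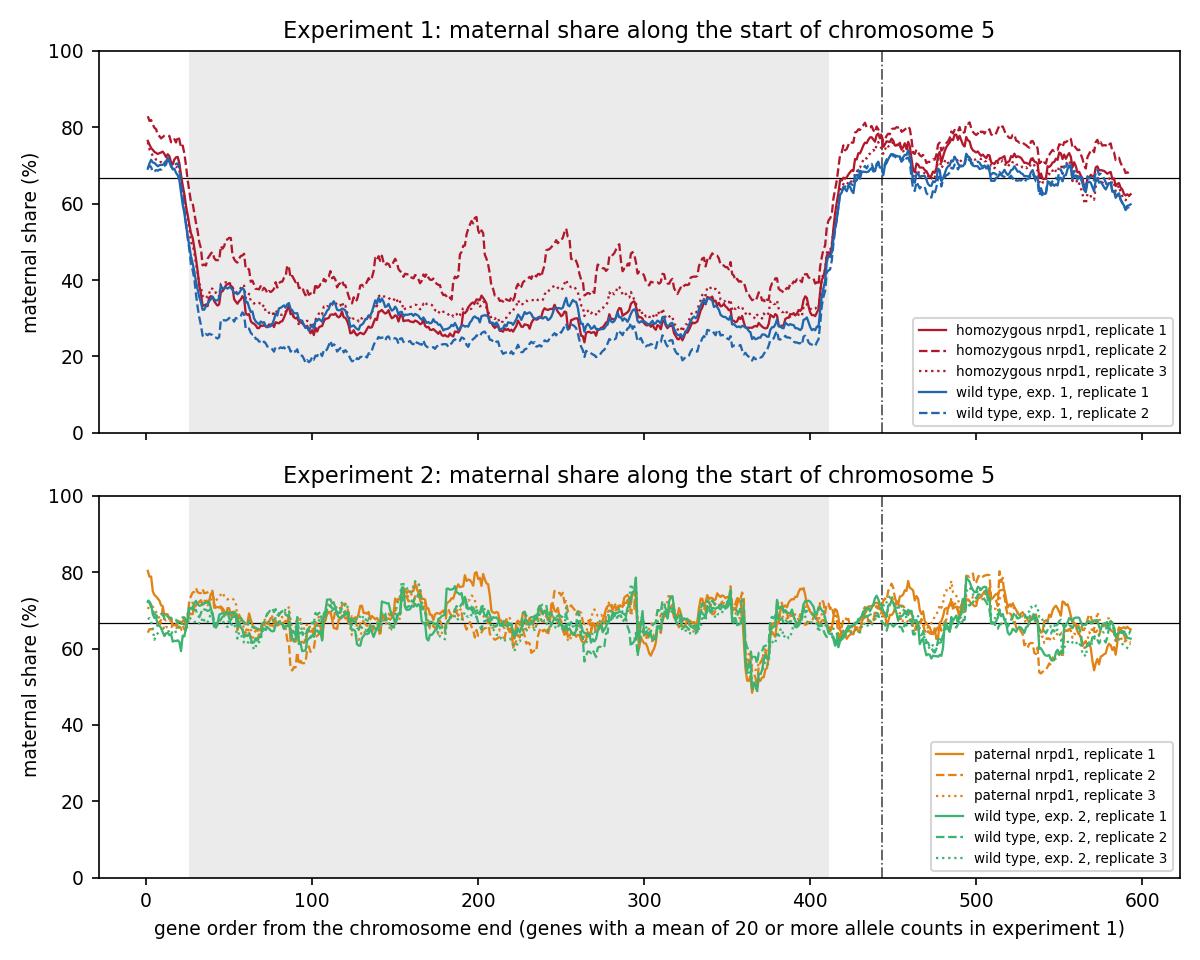
Maternal share (%) in a running window of 15 genes along the start of chromosome 5, by gene order, for the 5 libraries of experiment 1 (top) and the 6 of experiment 2 (bottom). Grey marks the low block, the horizontal line 66.7% and the dash-dotted line the last gene of the stretch; every experiment 1 library steps down and up at the borders of the block, and no experiment 2 library does.

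Pooled over the 384 informative members of the block, the maternal share was 27.8%, 39.0% and 31.3% in the 3 homozygous nrpd1 libraries and 28.8% and 21.9% in the 2 wild-type libraries of experiment 1. The group means were 32.7% ± 5.76 (SD, n = 3) in homozygous nrpd1 and 25.4% ± 4.91 (SD, n = 2) in wild type. The genotypes overlapped, since homozygous replicate 1 lay below wild-type replicate 1. In experiment 2, over 258 informative members, the share was 65.7%, 66.1% and 65.3% in paternal nrpd1 and 67.2%, 65.1% and 64.7% in wild type, with means of 65.7% ± 0.393 in paternal nrpd1 and 65.7% ± 1.37 in wild type (SD, n = 3 each). All 6 libraries of experiment 2 were within 3 points of the level for 2 maternal genomes and 1 paternal genome, and all 5 of experiment 1 were under 40%. Allele counts behind each value were at least 111128 and 119115 per library in homozygous nrpd1 and its wild type, and at least 81199 and 61292 in paternal nrpd1 and its wild type. The 95% Wilson interval of homozygous replicate 1 was 27.5% to 28.0%. Such intervals cover counting error only, and the spread between libraries was far wider.

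The members outside the block did not share the low level. The 26 informative members before it had pooled shares of 70.7%, 80.5% and 68.4% in homozygous nrpd1 and 66.7% and 68.3% in wild type. The 33 after it had 74.8%, 78.0% and 69.1% in homozygous nrpd1 and 67.8% and 67.2% in wild type. The 7959 other informative nuclear genes, outside the stretch and outside a gene list deposited under the name Col holdout, had 69.0%, 74.3% and 66.4% in homozygous nrpd1 and 64.7% and 64.0% in wild type. Both flanks thus lay slightly above the other genes in all 5 libraries, and the block lay 35.0 to 42.2 points below them. The block's share was 40.2%, 52.5% and 47.2% of that of the other genes in homozygous nrpd1 and 44.6% and 34.2% in wild type. In experiment 2 that proportion was 97.1%, 98.4% and 97.8% in paternal nrpd1 and 101%, 98.8% and 98.8% in wild type.

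**Figure D2:**
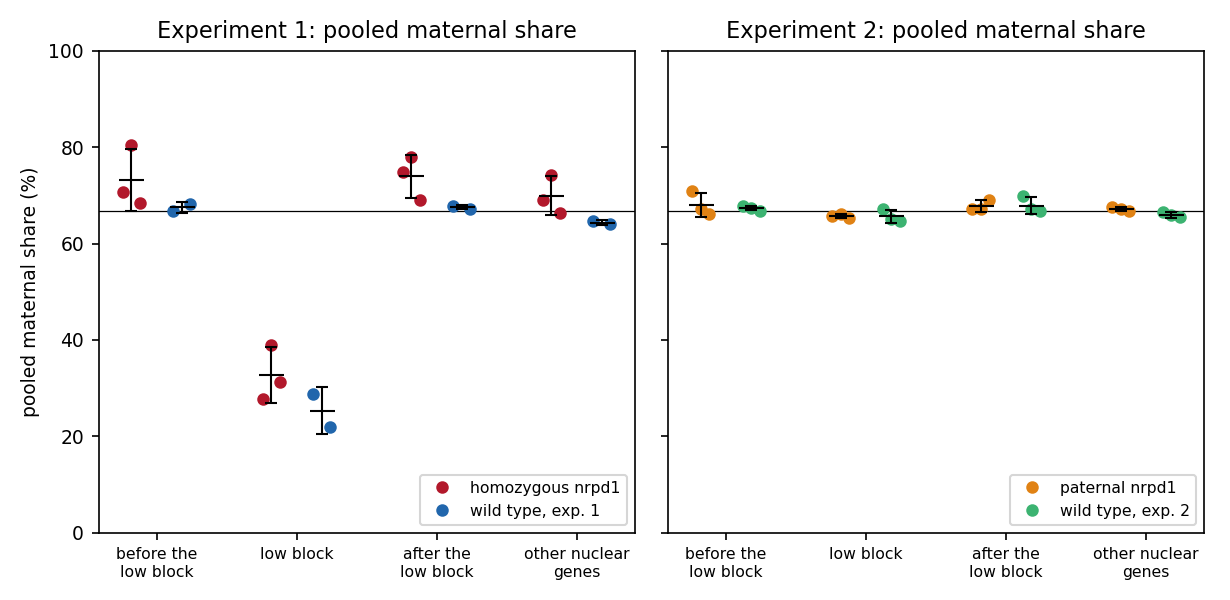
Pooled maternal share (%) of 4 sets of genes, 1 point per library, for experiment 1 (left panel) and experiment 2 (right panel), mutant left of wild type; bars are the mean and SD and the line is 66.7%. In experiment 1 the low block sits at 27.8% to 39.0% in homozygous nrpd1 and 21.9% to 28.8% in wild type, and in experiment 2 it lies with the other sets.

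The Col holdout list, whose purpose is not given in the sources used here, held 5081 identifiers, 3526 on chromosome 1 and 1555 on chromosome 2, and none of the 1202 members. On chromosome 1 the listed genes had pooled shares of 0.114%, 9.69% and 3.74% in homozygous nrpd1, against 65.3% and 55.4% in wild type. On chromosome 2 they had 37.5%, 42.8% and 5.55% in homozygous nrpd1, against 53.5% and 54.5% in wild type. In both listed sets every homozygous library was below every wild-type library. Wild-type replicate 2 on chromosome 1 and both wild-type libraries on chromosome 2 were also below the other nuclear genes of wild type in experiment 1, which had 64.7% and 64.0%. In wild type of experiment 2 the listed genes had 65.1%, 65.3% and 64.7% on chromosome 1 and 65.5%, 66.3% and 65.7% on chromosome 2.

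The low share ran through the whole block. In 10 consecutive windows of 38 or 39 informative members, pooled shares spanned 23.3% to 33.0%, 35.1% to 52.8% and 28.0% to 36.4% in homozygous nrpd1 replicates 1, 2 and 3, and 24.8% to 34.4% and 18.7% to 25.8% in wild-type replicates 1 and 2. Windows of homozygous replicate 2 were the highest, and no window of the other 4 libraries reached 50%. The window from AT5G07020 to AT5G07880, which holds the abundant GA20OX3 and ATS3, was at 23.3%, 35.4% and 28.0% in homozygous nrpd1 and 24.8% and 18.7% in wild type. It was also the lowest window in 5 of the 6 libraries of experiment 2, at 60.8%, 61.9% and 60.0% in paternal nrpd1 and 60.7%, 60.6% and 60.8% in wild type. The window from AT5G05920 to AT5G07010 was at 29.8%, 52.8% and 34.7% in homozygous nrpd1 and 30.3% and 23.0% in wild type, and its high value in replicate 2 includes the stress gene LEA4-5 described below.

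Nearly every informative member of the block took part. The share of each gene was averaged over the libraries of a group. By that mean, 364 of 384 members (94.8%) were below 50% in homozygous nrpd1. In wild type of experiment 1, 376 of 382 (98.4%) were below 50%. In experiment 2, 18 of 258 (6.98%) were below 50% in paternal nrpd1 and 16 of 258 (6.20%) in wild type. The median gene share was 35.3% (quartiles 30.8% and 39.2%) in homozygous nrpd1 and 27.1% (quartiles 22.7% and 31.4%) in wild type of experiment 1, against 68.8% (quartiles 63.1% and 73.4%) in paternal nrpd1 and 67.5% (quartiles 62.5% and 72.1%) in wild type of experiment 2. A share below 50% in all 5 libraries of experiment 1 was found for 298 of 381 block members (78.2%), for none of 26 members before the block or 33 after it, and for 236 of 7931 other nuclear genes (2.98%). The block was chosen on these libraries, so the count describes it and is not evidence for it.

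The same genes could be followed between the experiments in wild type. For 239 block members informative in both, Ler and Col counts were summed over the wild-type libraries of each experiment. The log2 ratio of Ler to Col (0.5 added to each sum) was lower in experiment 1 than in experiment 2 in all 239. The median difference was -2.60 (quartiles -2.96 and -2.25). Among 5343 other nuclear genes the median difference was 0.00, and for the 18 members before and 20 after the block it was 0.04 and -0.00. Per total read, block members had log2 differences between the experiments of 0.23 for Ler counts and 2.78 for Col counts (medians), against 1.49 and 1.50 in the other genes. Relative to the other genes, the block thus had fewer Ler counts and more Col counts per total read in experiment 1.

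**Figure D3:**
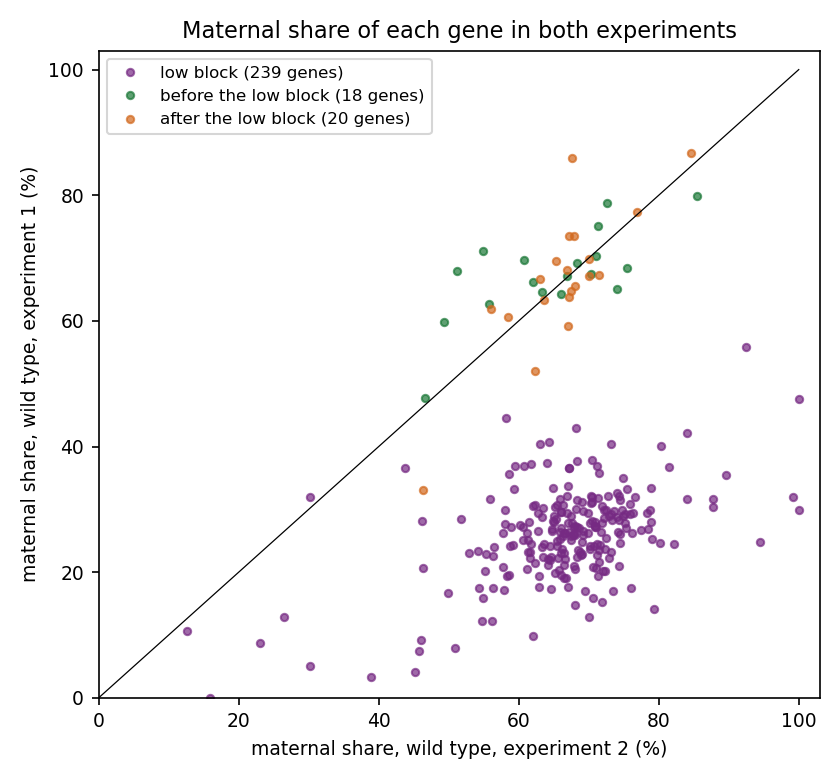
Maternal share (%) of each gene in wild type, experiment 1 (vertical axis) against experiment 2 (horizontal axis), 1 point per member that averaged 20 or more allele counts in both experiments. Of the 239 block members only AT5G08130, at 31.9% in experiment 1 and 30.2% in experiment 2, lies above the line of equal shares, while the 18 members before and 20 after the block scatter about the line.

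Differences between genes seen in experiment 2 remained visible inside the block. Members were sorted by their wild-type share in experiment 2. The 14 members under 50% had median shares of 13.4% in homozygous nrpd1 and 9.90% in wild type of experiment 1. The 106 members between 60% and 70% had 34.2% in homozygous nrpd1 and 26.3% in wild type, and the 14 at 80% or more had 41.6% in homozygous nrpd1 and 31.8% in wild type. The order of these medians was the same in both genotypes. Across the 239 members the shares of the 2 experiments correlated at Pearson r = 0.50 and Spearman rho = 0.34, against 0.70 and 0.56 in the other genes, as a description over genes that share libraries.

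The most deeply counted members show the levels gene by gene. GA20OX3, a gibberellin 20-oxidase that makes precursors of active gibberellin, had 26.0%, 36.3% and 29.4% in homozygous nrpd1 and 27.7% and 20.9% in wild type of experiment 1. Its share was 59.6%, 58.0% and 57.4% in paternal nrpd1 and 58.5%, 59.3% and 59.6% in wild type of experiment 2. These values rest on 42391, 31169, 55047 and 53715 allele counts in those 4 groups. Within experiment 2 it varied by under 3 points over 6 libraries, below the level of most genes in each. MT2B, a metal-binding metallothionein, had 34.4%, 39.0% and 35.5% in homozygous nrpd1 and 34.3% and 24.2% in wild type of experiment 1. In experiment 2 it had 73.4%, 71.1% and 73.9% in paternal nrpd1 and 74.7%, 71.7% and 73.1% in wild type. MT2B therefore lay above GA20OX3 in every library of both experiments.

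AT5G02960, a ribosomal protein of the S12/S23 family, had 31.6%, 39.6% and 34.7% in homozygous nrpd1 and 33.7% and 24.2% in wild type of experiment 1, against 63.3%, 64.8% and 64.7% in paternal nrpd1 and 65.3%, 65.0% and 64.7% in wild type of experiment 2. CIPK15, a kinase of the calcineurin B-like calcium sensor network, had 30.7%, 41.0% and 40.4% in homozygous nrpd1 and 34.3% and 24.3% in wild type, against 78.7%, 82.3% and 76.4% in paternal nrpd1 and 75.3%, 77.6% and 74.8% in wild type of experiment 2. Each was in the low range in experiment 1 whatever its level in experiment 2. ATS3, which encodes an embryo-specific protein, was the lowest of these genes at 11.7%, 29.3% and 20.2% in homozygous nrpd1 and 11.9% and 10.5% in wild type. It had 27734 and 14314 allele counts there, but 14 and 57 in paternal nrpd1 and wild type of experiment 2, too few for a level.

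Deeply counted members outside the block behaved differently. LHCB4.1, a light-harvesting antenna protein of photosystem II before the block, had 68.9%, 70.3% and 67.2% in homozygous nrpd1 and 66.5% and 68.4% in wild type of experiment 1. It had 68.9%, 70.2% and 69.3% in paternal nrpd1 and 68.8%, 72.3% and 69.8% in wild type of experiment 2. AT5G01350, also before the block, had 71.2%, 76.6% and 66.6% in homozygous nrpd1 and 66.7% and 71.9% in wild type of experiment 1. Both stayed near the level for 2 maternal copies of 3. AGP15, an arabinogalactan protein of the cell wall after the block, was more maternal in experiment 1, at 92.0%, 91.1% and 84.5% in homozygous nrpd1 and 86.2% and 85.5% in wild type, than in experiment 2, at 70.1%, 66.8% and 71.0% in paternal nrpd1 and 70.5%, 68.4% and 64.0% in wild type.

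Towards the outer ends the shares were ordinary. AT5G01020, a protein kinase near the chromosome end, had 61.8%, 79.0% and 67.0% in homozygous nrpd1 and 62.7% and 65.7% in wild type of experiment 1. Just inside the distal end, AT5G11850, another kinase, had 65.1%, 66.9% and 66.4% in homozygous nrpd1 and 66.7% and 60.9% in wild type. Just outside it, AT5G12350, of the RCC1 family, had 75.4%, 79.0% and 77.3% in homozygous nrpd1 and 72.0% and 73.5% in wild type. The limit of the stretch at AT5G12300 thus separates genes of like shares, and the step lies 138 members before it.

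DME, the glycosylase that removes methylated cytosine in the central cell and is needed for imprinting, lies in the block. Its share was 29.9%, 44.6% and 36.6% in homozygous nrpd1 and 30.4% and 22.1% in wild type of experiment 1, from 788 and 747 allele counts. In experiment 2 it was 69.6%, 71.4% and 41.7% in paternal nrpd1 and 64.7%, 70.8% and 64.3% in wild type, from only 42 and 93. DME followed the block. Its total level was 177, 147 and 165 CPM in homozygous nrpd1 and 200.3 and 199 CPM in wild type, below wild type in all 3 libraries but not called (log2 change -0.29, SE 0.10, adjusted p = 0.374 by edgeR).

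FLC, the repressor of flowering, lies in the block and was mostly Col in both experiments. It had 7.18%, 8.70% and 2.42% in homozygous nrpd1 and 11.9% and 9.35% in wild type of experiment 1, with 13.4%, 5.45% and 5.83% in paternal nrpd1 and 10.7%, 12.9% and 14.2% in wild type of experiment 2. The groups had 581, 405, 446 and 343 allele counts, and every library was under 15%. EMF1, a Polycomb-associated repressor after the block, had 77.6%, 79.5% and 69.5% in homozygous nrpd1 and 65.3% and 69.7% in wild type of experiment 1, the ordinary level. The histone gene AT5G10400 had 22.5%, 33.9% and 34.0% in homozygous nrpd1 and 26.6% and 29.2% in wild type of experiment 1, against 71.4%, 66.4% and 69.2% in paternal nrpd1 and 70.7%, 65.8% and 64.8% in wild type of experiment 2. Reads of this gene can be shared with near-identical histone copies.

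Single hormone genes were also low in experiment 1. EIN2, the central membrane protein of ethylene signalling, had 34.6%, 47.4% and 43.9% in homozygous nrpd1 and 42.4% and 28.5% in wild type of experiment 1. It had 89.9%, 83.8% and 89.4% in paternal nrpd1 and 90.1%, 87.1% and 91.6% in wild type of experiment 2, well above most genes. CTR1, the kinase that holds the ethylene pathway off, had 23.6%, 43.8% and 27.9% in homozygous nrpd1 and 27.0% and 23.4% in wild type of experiment 1. PRT6, a ubiquitin ligase of the N-degron pathway, had 33.3%, 46.4% and 34.7% in homozygous nrpd1 and 34.8% and 26.5% in wild type. All 3 of these genes were below 50% in every experiment 1 library.

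A gene each of walls, pigments and chaperones was also mostly Col in experiment 1. CEV1 (CESA3), a cellulose synthase subunit, had 30.5%, 38.3% and 33.0% in homozygous nrpd1 and 31.1% and 25.7% in wild type of experiment 1, against 70.2%, 68.9% and 74.4% in paternal nrpd1 and 75.4%, 73.1% and 71.7% in wild type of experiment 2. HSC70-1, a constitutive chaperone, had 37.9%, 47.0% and 40.9% in homozygous nrpd1 and 41.2% and 32.6% in wild type of experiment 1. TT7, the flavonoid 3'-hydroxylase of seed coat pigment synthesis, had 27.4%, 31.4% and 31.2% in homozygous nrpd1 and 29.7% and 19.8% in wild type of experiment 1. TT7 had 75%, 100% and 100% in paternal nrpd1 and 93.8%, 89.5% and 100% in wild type of experiment 2, on 106 and 79 allele counts. A gene known for a maternal tissue was therefore mostly Ler in experiment 2 and mostly Col in experiment 1.

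Among the 384 informative block members, 3 had at least 50% in both wild-type libraries of experiment 1. They were named after their values were seen. AT5G09570, of the Cox19-like CHCH family, had 63.7%, 69.0% and 65.8% in homozygous nrpd1 and 56.4% and 55.4% in wild type of experiment 1. It had 94.3%, 92.0% and 92.8% in paternal nrpd1 and 91.8%, 92.5% and 93.3% in wild type of experiment 2, so it too was lower in experiment 1. AT5G02230, a haloacid dehalogenase-like hydrolase, had 73.8%, 87.7% and 76.6% in homozygous nrpd1 and 73.8% and 80.7% in wild type of experiment 1. The peroxidase gene PA2 had 69.1%, 75.5% and 58.1% in homozygous nrpd1 and 71.4% and 60.7% in wild type, on 152 and 35 allele counts. At the other end, 4 members informative in both experiments were under 10% in all 5 libraries of experiment 1, and were also named after their values were seen. LUL1, a RING-type ubiquitin ligase, had 2.86%, 4.38% and 3.18% in homozygous nrpd1 and 3.80% and 2.79% in wild type of experiment 1, against 32.4%, 30.5% and 47.0% in paternal nrpd1 and 44.3%, 40% and 32.5% in wild type of experiment 2. RR21, a response regulator of the cytokinin pathway, had 4.37%, 5.73% and 3.78% in homozygous nrpd1 and 5.37% and 4.87% in wild type of experiment 1. The others were the cytochrome P450 gene CYP81K1 and the noncoding RNA gene AT5G03285. LUL1 and RR21 were below 50% in every library of experiment 2 as well.

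Homozygous replicate 2 had the highest share in the block, 39.0%, and also in the other nuclear genes, 74.3%. Over 245 block members with at least 200 allele counts in homozygous nrpd1, its share exceeded the mean of replicates 1 and 3 in 227, by a median of 8.90 points. Without replicate 2, the remaining homozygous values were 27.8% and 31.3%, against 28.8% and 21.9% in wild type. Of the 4 genes with the largest excess, named after their values were seen, the first is LEA4-5. LEA4-5, a late embryogenesis abundant protein of water stress, had 16.4%, 93.9% and 44.5% in homozygous nrpd1 and 26.1% and 12.9% in wild type of experiment 1. Its total level was 11.0, 288 and 18.9 CPM in homozygous nrpd1 and 4.02 and 10.2 CPM in wild type. High level and high maternal share thus came together in 1 library. AT5G05220, the next in order, had 24.1%, 82.9% and 24.3% in homozygous nrpd1 and 20.9% and 29.2% in wild type, with 6.10, 29.9 and 16.0 CPM in homozygous nrpd1 and 6.14 and 10.6 CPM in wild type. AT5G07330 had 43.5%, 96.4% and 44.8% in homozygous nrpd1 and 50% and 24% in wild type, with 3.99, 84.2 and 7.94 CPM in homozygous nrpd1 and 1.40 and 4.16 CPM in wild type. DREB2A, a transcription factor of drought and heat responses, had 22.1%, 55.8% and 22.2% in homozygous nrpd1 and 21.7% and 13.4% in wild type, with 25.7, 38.1 and 44.2 CPM in homozygous nrpd1 and 21.7 and 24.1 CPM in wild type. DREB2A had the highest share in replicate 2 but not the highest total.

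The genotypes were compared gene by gene only as a description in experiment 1, since the rule used those shares. Every homozygous library was above every wild-type library in 111 of 381 block members (29.1%) and in 130 of 440 members of the stretch (29.5%). The background over 7931 other nuclear genes was 31.6%. Every homozygous library was below every wild-type library in 3 of 440 members, against a background of 1.48%. The median difference was 7.07 points in the block and 4.30 points in the other genes. In experiment 2 every paternal nrpd1 library was above every wild-type library in 24 of 299 members and below in 13, against backgrounds of 7.6% and 3.57%. These shares of the members were close to the background.

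The rule used the level of the shares in experiment 2 but not the difference between its genotypes. A fit of that difference is given as a description, since it uses the same allele counts. An edgeR fit of Ler and Col counts with an allele by genotype term, over 7371 genes, tested 300 members and called none higher and none lower in paternal nrpd1 (backgrounds 0.0407% and 0.0271%). At an unadjusted p under 0.05 there were 9 members (3%), against 5.25% of all genes, and the smallest adjusted p was 0.804. DESeq2 also called none (backgrounds 0.0407% and 0.0543%). The median log2 difference was 0.08 in the members and 0.07 in all genes.

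Few members differed in total expression between the genotypes of experiment 1. In homozygous nrpd1 against wild type, an edgeR quasi-likelihood fit over 18570 features tested 863 members and called 1 higher and none lower (backgrounds 0.232% and 0.102%). An unadjusted p under 0.05 was reached by 89 members (10.3%) and by 11.7% of all features. The median log2 change was 0.01 in the members and 0.00 over all features, with quartiles of -0.13 and 0.18 in the members. DESeq2 tested 938 members and called 13 higher and 4 lower (backgrounds 1.81% and 0.725%). The labels do not say that replicates came from separate plants, so p-values measure only the spread between these samples.

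The member called higher was PELPK1 (AT5G09530, chr5:2959734-2961382, minus strand), a hydroxyproline-rich cell wall protein. PELPK1 had 133, 147 and 49.9 CPM in homozygous nrpd1 and 1.23 and 0.312 CPM in wild type of experiment 1. Every homozygous library lay far above both wild-type libraries, which held 22 and 6 counts. PELPK1 averaged 109.9 ± 52.5 CPM in homozygous nrpd1 (SD, n = 3) and 0.770 ± 0.648 CPM in wild type (SD, n = 2), and rose (log2 change 7.17, SE 0.80, adjusted p = 0.0461 by edgeR with Benjamini-Hochberg adjustment). The call was lost without homozygous replicate 1 or 2 or without either wild-type library, and at an adjusted p of 0.0778 when the Col holdout genes were left out of the fit. PELPK1 had no allele counts. In experiment 2 it had 3.82, 4.94 and 8.62 CPM in paternal nrpd1 and 4.87, 2.32 and 3.35 CPM in wild type (adjusted p = 0.643 by edgeR), and the difference between the 2 mutant effects was not called (adjusted p = 0.0862 by edgeR).

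Neighbouring hydroxyproline-rich genes showed the same contrast without passing the threshold. AT5G09480 had 57.9, 76.9 and 20.9 CPM in homozygous nrpd1 and 0.391 and 0.987 CPM in wild type (log2 change 6.21, SE 0.82, adjusted p = 0.0714 by edgeR). PELPK2 had 13.8, 12.6 and 4.66 CPM in homozygous nrpd1 and 0.167 and 0.104 CPM in wild type (log2 change 6.19, SE 0.76, adjusted p = 0.0598 by edgeR). In both, no homozygous library overlapped wild type. The family members are similar in sequence, and reads of one can be counted at another.

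Other members had no count at all in wild type. LAC12, a laccase of lignin polymerisation, had 216, 102 and 75 counts in homozygous nrpd1 and 0 in both wild-type libraries. Against a floor of 3 counts over both wild-type libraries it was at least 95.0-fold higher (adjusted p = 0.123 by edgeR, 2.7e-07 by DESeq2 and 0.0185 by edgeR with the replicate block). AT5G07475, of the cupredoxin family of copper proteins, was at least 48.5-fold higher on the same floor (adjusted p = 0.123 by edgeR, 1.1e-05 by DESeq2 and 0.0335 by edgeR with the block). RBOHA, an NADPH oxidase that makes superoxide, was at least 16.8-fold higher (adjusted p = 0.238 by edgeR, 0.00325 by DESeq2 and 0.0664 by edgeR with the block). In all of these genes homozygous replicate 3 had the lowest level and replicates 1 and 2 were higher. The fit with the replicate block had no wild-type replicate 3. Homozygous replicate 3 therefore added nothing to its genotype effect. Whether replicate numbers pair the libraries could not be decided within experiment 1, which has only 2 wild-type libraries. Seed coat markers summed to 1237, 1015 and 873 CPM in homozygous replicates 1, 2 and 3 and 872 and 905 CPM in wild-type replicates 1 and 2, with replicate 3 at the wild-type level, and their part in the result was not tested.

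The maternal shares of these high members lay above that of the block. LAC12 had 61.4%, 60% and 53.1% in the homozygous libraries (188 allele counts in all), AT5G07475 had 58.3%, 68.4% and 44.4% (52) and PELPK2 had 54.8%, 58.5% and 44.4% (101). The pooled block value was 27.8%, 39.0% and 31.3% in the same libraries. AT5G09480 had 33.3%, 68.2% and 50%, on only 47 allele counts. With no allele count in wild type, the shares could not be compared between genotypes.

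**Figure D4:**
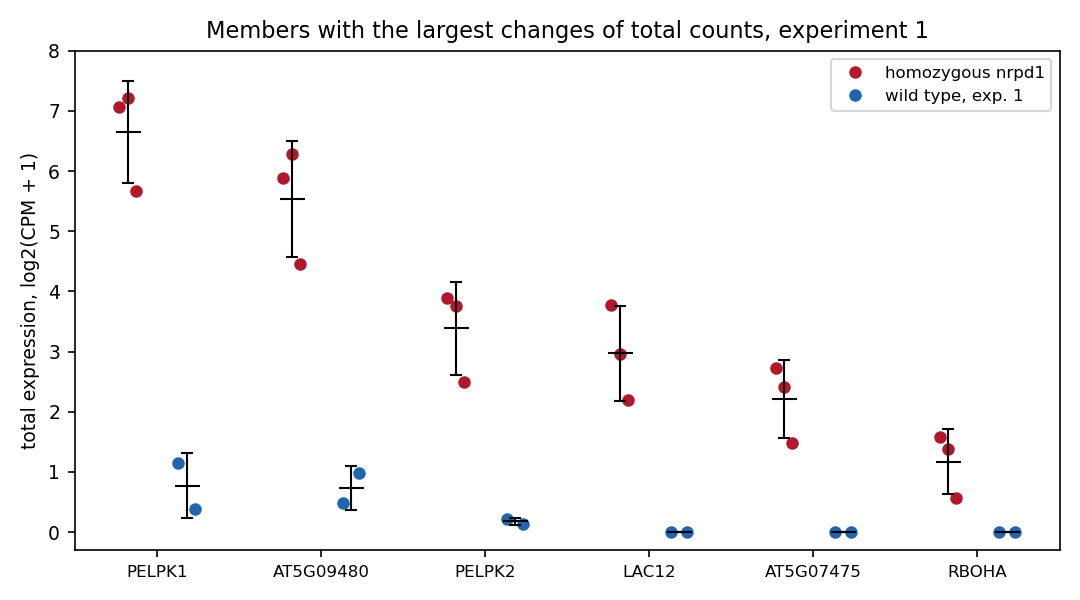
Total expression as log2(CPM + 1) of 6 members in the 3 homozygous nrpd1 libraries (left of each pair) and 2 wild-type libraries of experiment 1; bars are the mean and SD. The homozygous libraries lie above wild type in all 6 genes with no overlap, and replicate 3 is the lowest homozygous library in each.

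The remaining DESeq2 calls were smaller and were not called by edgeR. KTF1, a transcription elongation factor-like protein of RNA-directed DNA methylation, had 164, 170.1 and 169 CPM in homozygous nrpd1 and 198 and 210.1 CPM in wild type (log2 change -0.28, adjusted p = 0.0432 by DESeq2 and 0.297 by edgeR). PMDH2, a peroxisomal malate dehydrogenase, had 36.7, 43.1 and 42.0 CPM in homozygous nrpd1 and 61.9 and 60.1 CPM in wild type (log2 change -0.58, adjusted p = 0.000981 by DESeq2 and 0.133 by edgeR). AT5G08750, of the RING/FYVE/PHD zinc finger family, had 37.4, 31.8 and 38.7 CPM in homozygous nrpd1 and 52.9 and 49.9 CPM in wild type (log2 change -0.51, adjusted p = 0.0205 by DESeq2 and 0.205 by edgeR). None of these overlapped between the genotypes. ZAT6, a zinc finger factor of stress and phosphate responses, had 11.3, 20.3 and 13.3 CPM in homozygous nrpd1 and 4.30 and 7.90 CPM in wild type (log2 change 1.30, adjusted p = 0.0393 by DESeq2 and 0.324 by edgeR). The shares of KTF1 were 28.5%, 38.3% and 32.8% in homozygous nrpd1 and 32.3% and 25.6% in wild type, those of the block.

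In paternal nrpd1 against wild type of experiment 2, edgeR tested 863 members and called none higher and none lower (background 0.0% in each direction), with 61 members (7.07%) at an unadjusted p under 0.05 against 7.91% of all features. DESeq2 called none of 937 (backgrounds 0.0188% and 0.0282%). The largest positive differences were in small heat shock genes and came from 1 library. HSP17.6A, a small heat shock protein after the block, had 1.13, 174 and 2.00 CPM in paternal nrpd1 and 8.72, 0.900 and 2.86 CPM in wild type (log2 change 3.84, SE 1.81, adjusted p = 0.616 by edgeR), and the log2 change was -1.40 without paternal nrpd1 replicate 2. HSP17.6II, its class II relative, had 2.29, 41.3 and 1.32 CPM in paternal nrpd1 and 4.20, 0.765 and 1.15 CPM in wild type (log2 change 2.89, and -0.17 without the same library). HSP17.6A was also high in 1 library of experiment 1, with 0.117, 57.2 and 0.0951 CPM in homozygous nrpd1 and 0.167 and 0.156 CPM in wild type. The sulfate transporter SULTR2;1 had 0, 0.700 and 2.03 CPM in paternal nrpd1 and 0.134, 0.270 and 0 CPM in wild type. AT5G05020, of the pollen Ole e 1 allergen family, had 0.339, 0 and 0 CPM in paternal nrpd1 and 0, 1.91 and 0.838 CPM in wild type, so the groups overlapped in both genes. No member was called for a difference between the 2 mutant effects in 928 tested (background 0.0% in each direction). An unadjusted p under 0.05 by edgeR was reached by 54 members (5.82%) and by 7.31% of all features.

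**Figure D5:**
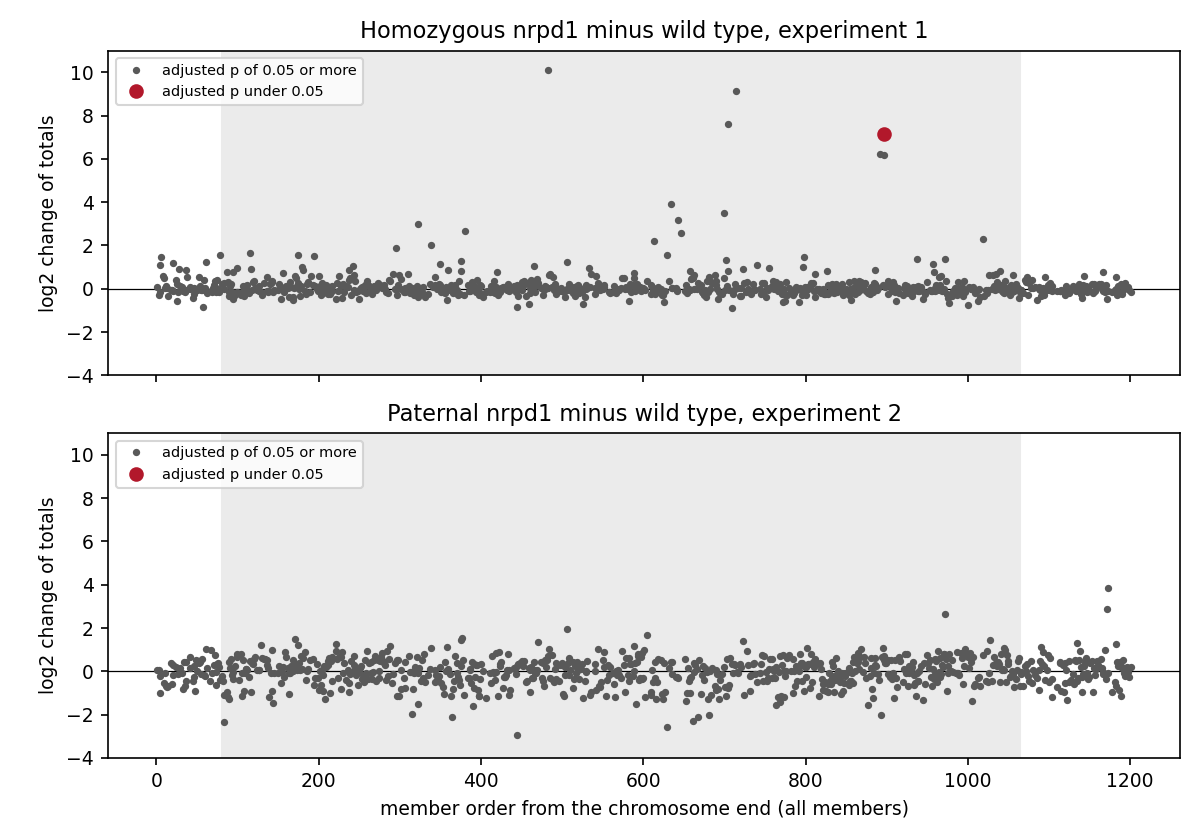
Log2 change of total counts of each tested member by its order from the chromosome end, homozygous nrpd1 minus wild type (top) and paternal nrpd1 minus wild type (bottom); grey marks the low block. Most members lie near 0 inside and outside the block, with 1 member (PELPK1, red) at an adjusted p under 0.05.

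In the gene groups that follow, edgeR called no member in either direction in experiment 1. Of 12 genes of DNA methylation and chromatin, 5 had a positive and 7 a negative log2 change in homozygous nrpd1 (median -0.03), and none was called. Of 6 hormone genes tested, 1 was positive and 5 were negative (median -0.12). The 3 nutrient transport genes tested were positive (median 1.18), and PTR5, a peptide transporter before the block, had 55.8, 52.7 and 21.4 CPM in homozygous nrpd1 and 19.5 and 18.8 CPM in wild type (log2 change 1.18, SE 0.42, adjusted p = 0.392 by edgeR). The 3 flavonoid genes had a median of 0.21, the 4 genes of cytoskeleton and cell wall 0.07, the 4 heat shock genes tested -0.03 and the 4 seed development genes 0.02. Over all features 50.5% were positive in homozygous nrpd1 and 50.9% in paternal nrpd1. TT7 had 181, 108 and 91.1 CPM in homozygous nrpd1 and 161 and 135 CPM in wild type (log2 change -0.22, SE 0.30, adjusted p = 0.775 by edgeR), so its groups overlapped.

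Larger families were described by annotation. All 14 ribosomal protein genes tested were positive in homozygous nrpd1, with a median log2 change of 0.12. In paternal nrpd1 15 of 16 were positive with a median of 0.64, and none was called in either comparison. Protein kinase genes were positive in 19 of 46 in homozygous nrpd1 (median -0.08) and in 13 of 44 in paternal nrpd1 (median -0.29). Zinc finger and RING genes were positive in 22 of 32 (median 0.03) and in 16 of 33 (median -0.00). Transporter genes were positive in 7 of 16 and in 9 of 16. In experiment 1 the median maternal share was 32.4% in homozygous nrpd1 and 25.4% in wild type for 10 ribosomal protein genes, and 35.5% in homozygous nrpd1 and 27.8% in wild type for 30 kinase genes. In experiment 2 the medians were 64.7% in paternal nrpd1 and 64.9% in wild type for 10 ribosomal protein genes, and 68.5% in paternal nrpd1 and 65.4% in wild type for 18 kinase genes.

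Not every member could be followed. In experiment 1, 138 of the 1202 members had no count in any library, and 305 had total counts but no allele count. In experiment 2 these numbers were 146 and 381, and 277 members had enough allele counts in both experiments. A pair of block genes with at least 10 CPM in every experiment 1 library had no count in any experiment 2 library, out of 550 members at that level. They were CPK1, a calcium-dependent protein kinase, with 58.6, 58.7 and 69.6 CPM in homozygous nrpd1 and 62.1 and 59.1 CPM in wild type, and the cytochrome P450 gene CYP77A4. In the opposite direction, the methyltransferase gene AT5G01710 had 87.4, 43.4 and 54.7 CPM in paternal nrpd1 and 69.7, 97.0 and 87.8 CPM in wild type of experiment 2, and no count in any experiment 1 library. A count of 0 in a whole experiment is listed here as it stands in the tables.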

How the data were processed

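The deposited tables hold, per library and gene, whole-number counts of all reads and of reads assigned to Ler and to Col. Per the submitters' processing notes, cutadapt, Trim Galore, FastQC, TopHat, HTSeq and the TAIR10 build were used. Versions, the way reads were assigned to alleles and whether strand was used in counting are not given in the sources used here. Positions and sequences come from TAIR10.1. Lines of the experiment 2 tables that name no gene (11.6% to 13.3% of their counts) were left out.

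Totals were compared with edgeR 4.0.16 in R 4.3.3 (TMM scaling, filterByExpr, quasi-likelihood test, two-sided, Benjamini-Hochberg adjustment over all features, threshold 0.05), and DESeq2 1.42.0 was an alternative. Fits used the counts of the compared groups and were tested on simulated data. CPM is the count scaled to 1000000 per library after TMM scaling within each experiment. Shares were pooled over members with a mean of at least 20 allele counts per library of the experiment. The block was placed by a binomial fit with 2 levels. At most 100 allele counts were weighted per gene, and the block had to hold at least 5 genes.

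The members and the gene lists were chosen with earlier results of these data known. Genes named are called members, members of the role lists, those with the most allele counts, those of at least 50% in wild type of experiment 1, those at the ends of the stretch and those with the largest changes. Genes added after their values were seen are named as such. Replicate numbers did not pair libraries by the rule used, which could not decide for experiment 1 alone. No 2 libraries of a group agreed within sampling noise.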

Additional observations from a re-analysis of the deposited data

How the results depend on the processing

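The count of members called in homozygous nrpd1 against wild type was 1. It was 17 with DESeq2 (13 higher, 4 lower), 3 with no filter on low counts (all higher) and 0 with the Col holdout genes left out. With the replicate block it was 11 (all higher). Except for DESeq2, the share called over all features is not given for these alternatives. Their counts are therefore not set against a background. There is no wild-type replicate 3, so homozygous replicate 3 adds nothing to the genotype effect of the block fit. Leaving out 1 library gave 0 to 4 calls. It gave 0 without homozygous replicate 1, homozygous replicate 2 or either wild-type replicate, and 4 without homozygous replicate 3. With a single wild-type library left, that library was assumed to vary like the homozygous libraries. PELPK1 was called under 6 of 11 alternatives, with log2 changes of 6.48 to 8.43 and adjusted p-values of 1.4e-13 to 0.451. AT5G09480 and PELPK2 were called with DESeq2, with no filter, with the block and without homozygous replicate 3. The cause of these shifts was not tested. In paternal nrpd1 the counts for totals and for the allele ratio were 0 under every alternative run, the replicate block included.

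Leaving out 1 library, the log2 change of HSP17.6A ranged from -1.40 to 4.98 and that of HSP17.6II from -0.17 to 3.96, both lowest without paternal nrpd1 replicate 2. The share of the whole stretch was 66.0% in paternal nrpd1 and 65.9% in wild type of experiment 2. As a median of gene shares it was 68.6% in paternal nrpd1 and 67.8% in wild type. It was 66.8% in paternal nrpd1 without the 5 members with the most allele counts. The shares of experiment 1 moved by less than 1 SD between libraries under each alternative that kept every library. Leaving out 1 of so few libraries cannot move a mean by 1 SD, so those values give only a range. It was 34.0% to 39.6% in homozygous nrpd1 and 26.9% to 33.2% in wild type. Placing the distal boundary after AT5G11020, chosen after seeing the data, gave block means of 32.7% and 25.4% in those groups.

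Replicate numbers did not pair the libraries by the rule used. Same-numbered pairs deviated together in experiment 1 (correlations 0.34 and 0.36), where only 2 pairs exist, and not in experiment 2 (-0.55, -0.73 and 0.15). The 2 wild-type libraries of experiment 1 deviate as mirror images. Homozygous replicate 1 thus had 0.34 with wild-type replicate 1 and -0.34 with wild-type replicate 2, so experiment 1 alone cannot decide. Depth limits the shares of single genes in experiment 2, where 300 members had enough allele counts against 443 in experiment 1.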
